A study of Mus musculus with 12 samples.

Results

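The genes of mitochondrial and peroxisomal fatty acid oxidation were examined in mouse kidney as a list of 45 named genes. The rule held gene symbols and no measured value, but the list was chosen with earlier results of these data known. Shares of members called, set beside those of all genes, are therefore descriptions. All 45 were found among the 24532 gene identifiers of the deposited tables. Each was placed in 1 class by location of its protein: 18 mitochondrial, 17 peroxisomal, 3 in both organelles and 7 elsewhere in the cell or outside it. Slc27a2 was placed with the last 7 although its enzyme is also known in peroxisomes, so the peroxisomal counts and sums leave it out. Levels are in TPM, a transcript abundance corrected for gene length and scaled to the same total in every library. A total of 14488 genes reached 1 TPM in at least 3 libraries and were tested. They held 44 of the 45 members. Abcd2, a peroxisomal acyl-CoA transporter, was listed at 0.241 to 0.621 TPM and was not tested.

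Total RNA from kidney was sequenced in 12 libraries, 3 in each of 4 groups. Wild-type mice were C57BL/6, and knockout mice came from the Nr1h4tm1Gonz/J line, which lacks a functional farnesoid X receptor (FXR, gene Nr1h4), a nuclear receptor for bile acids. Each genotype was given vehicle or GW4064, a synthetic FXR agonist, the latter for 6 h, and every animal had been fasted overnight. The deletion is carried in all tissues and not only in the kidney. The labels give no age, sex, dose or vehicle, no time for the vehicle groups and no statement that knockout and wild-type animals were littermates, so the deletion and the background of the line cannot be told apart. They also do not say that the 3 libraries of a group were separate animals. The p-values therefore measure the spread between these libraries, which may be technical.

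Fatty acids are activated to acyl-CoA esters, carried into mitochondria as carnitine esters by the carnitine palmitoyltransferases, and shortened in repeated cycles of dehydrogenation, hydration, dehydrogenation and thiolysis. Peroxisomes shorten very long, branched and dicarboxylic acyl chains, using acyl-CoA oxidases for the first step and the bifunctional enzymes Ehhadh and Hsd17b4 for the middle steps. The proximal tubule of the kidney takes most of its energy from fatty acid oxidation and is rich in both organelles, and many of these genes are known targets of the nuclear receptor PPAR alpha in liver and kidney.

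The 250 bases upstream of the annotated start are shown for 4 members whose levels carry the results: Ehhadh and Acot2, which differed most between genotypes on vehicle, and Phyh and Acot4, which rose with GW4064 in wild-type kidney. The sequences are from RefSeq on GRCm38.p6, 5′ to 3′ on the strand of the gene, and capitals mark a match to one of the motifs described next.
Ehhadh, chr16:21787835-21788084, minus strand: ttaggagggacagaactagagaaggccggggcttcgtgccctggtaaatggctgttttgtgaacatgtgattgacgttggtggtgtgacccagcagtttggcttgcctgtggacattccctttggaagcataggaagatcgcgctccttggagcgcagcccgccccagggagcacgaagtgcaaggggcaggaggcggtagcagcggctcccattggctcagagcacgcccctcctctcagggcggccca
Acot2, chr12:83987611-83987860, plus strand: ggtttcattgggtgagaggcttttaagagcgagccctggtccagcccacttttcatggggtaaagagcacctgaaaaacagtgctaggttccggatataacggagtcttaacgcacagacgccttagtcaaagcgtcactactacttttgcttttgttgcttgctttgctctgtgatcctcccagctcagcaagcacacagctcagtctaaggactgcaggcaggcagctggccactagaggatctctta
Phyh, chr2:4918746-4918995, plus strand: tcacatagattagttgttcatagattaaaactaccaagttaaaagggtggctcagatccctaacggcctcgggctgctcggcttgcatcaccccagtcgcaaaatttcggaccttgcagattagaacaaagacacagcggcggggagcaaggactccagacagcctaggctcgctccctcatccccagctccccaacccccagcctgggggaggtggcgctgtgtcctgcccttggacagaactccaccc
Acot4, chr12:84038129-84038378, plus strand: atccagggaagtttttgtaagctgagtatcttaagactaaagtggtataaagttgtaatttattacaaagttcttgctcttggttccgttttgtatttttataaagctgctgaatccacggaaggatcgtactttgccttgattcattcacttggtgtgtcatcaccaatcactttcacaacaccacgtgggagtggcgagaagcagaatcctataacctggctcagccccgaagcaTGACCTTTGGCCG

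Windows of this length were found for 36 of the 45 members. They were searched on both strands for AGGTCANAGGTCA, the direct repeat spaced by 1 base (DR1) that PPAR alpha and its partner bind, for AGGTCANTGACCT, the inverted repeat spaced by 1 base (IR1) that FXR binds, and for the hexamer AGGTCA, which both contain. The Acot4 window holds TGACCTTTGGCCG, a DR1 match with 2 mismatches on the opposite strand that ends 1 base before the start and overlaps a hexamer match. The Ehhadh, Acot2 and Phyh windows hold none of the 3. With up to 2 mismatches allowed, DR1 matched windows of 5 members (Acot12, Acot4, Cd36, Echs1 and Etfa), and 3.24% of all 32851 RefSeq windows. IR1 matched windows of 2 members, Acaa1b and Acot12, and 0.959% of all windows. The exact hexamer lay in windows of 9 members and in 14% of all windows. The limit of 2 mismatches was chosen after 1 mismatch gave a DR1 match in the Acot12 window alone and no IR1 match. These are descriptions of letters in these windows and were not tied to binding.

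On the TPM scale, which corrects for length, the tested members spanned a wide range. The most abundant was Slc27a2, a very-long-chain acyl-CoA synthetase, at a mean of 4543 TPM over the 12 libraries, followed by Ehhadh at 1646 TPM and Acadm, the medium-chain acyl-CoA dehydrogenase, at 1295 TPM. At the lower end stood Cpt1b, the muscle form of carnitine palmitoyltransferase, at 48.4 TPM and Pex11a, a peroxisome division factor, at 42.6 TPM. The liver form Cpt1a averaged 495 TPM. Some members share sequence with other genes, so their reads may have been split by the counting. Of all stretches of 50 bases in the transcript of Acot1, 33.2% also occur in transcripts of other genes, most of them in Acot2, and of those in Acot2 27.7% do, most of them in Acot1. The share was 34.0% for Acaa1a and 35.5% for Acaa1b, which are each other's copy, 93.0% for Cpt1b, 67.3% for Etfb, 62.4% for Hadhb, 41.4% for Scp2, 27.1% for Slc22a5 and 19.5% for Acot3.

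The libraries held 2.857 to 4.274 gigabases of mapped sequence, and 16693 to 17186 genes were above 0. Nr1h4 was listed at 217, 267 and 249 TPM in wild-type vehicle, 189, 206 and 242 in wild-type GW4064, 119.9, 116 and 113 in knockout vehicle and 105, 131 and 134 in knockout GW4064 libraries. It was lower in all 6 knockout libraries than in all 6 wild-type libraries but not absent, with a log2 difference of -1.06 ± 0.11 on vehicle (limma adjusted p = 0.000189), and its total does not show which exons the remaining reads cover. The kidney labels matched the data, as proximal tubule markers summed to 55497 to 71797 TPM, of which Kap alone, an androgen-regulated tubule protein, made up 86.2 to 89.6% by group. White fat markers varied from 1.503 to 37.6 TPM in sum, and the groups overlapped. Brown fat markers were highest with vehicle in wild type, at summed levels of 6.68 to 7.14 TPM, against 0.0519 to 6.03 TPM in the other 9 libraries, and their part in comparisons with that group was not tested. None of the tested fat markers was called in limma, but their standard errors were large, such as 0.98 for Cfd with GW4064 in wild type. Cfd ranged from 0.71 to 25.3 TPM within the wild-type GW4064 libraries. Lep was listed at 0 in 11 of 12 libraries, while the highest values of the other white fat markers ran from 1.66 (Retn) to 25.3 TPM (Cfd).

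In knockout kidney on vehicle, most of the fatty acid oxidation genes stood above wild type. In limma's test with Benjamini-Hochberg adjustment over all 14488 genes, 23 of 44 members were higher and 3 lower at an adjusted p under 0.05, against 3.19% of all genes higher and 9.73% lower (12.9% in either direction). The members' median log2 difference of TPM plus 0.5 was 0.18, and that of all genes was -0.09. Of the 44, 39 had a positive difference, and in 29 all 3 knockout libraries lay above all 3 wild-type libraries, which held for 7.89% of all genes. In 3 members the knockout libraries all lay below, against 26.8% of all genes. In bulk tissue, fewer cells of a type and less RNA per cell cannot be told apart.

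**Figure D1:**
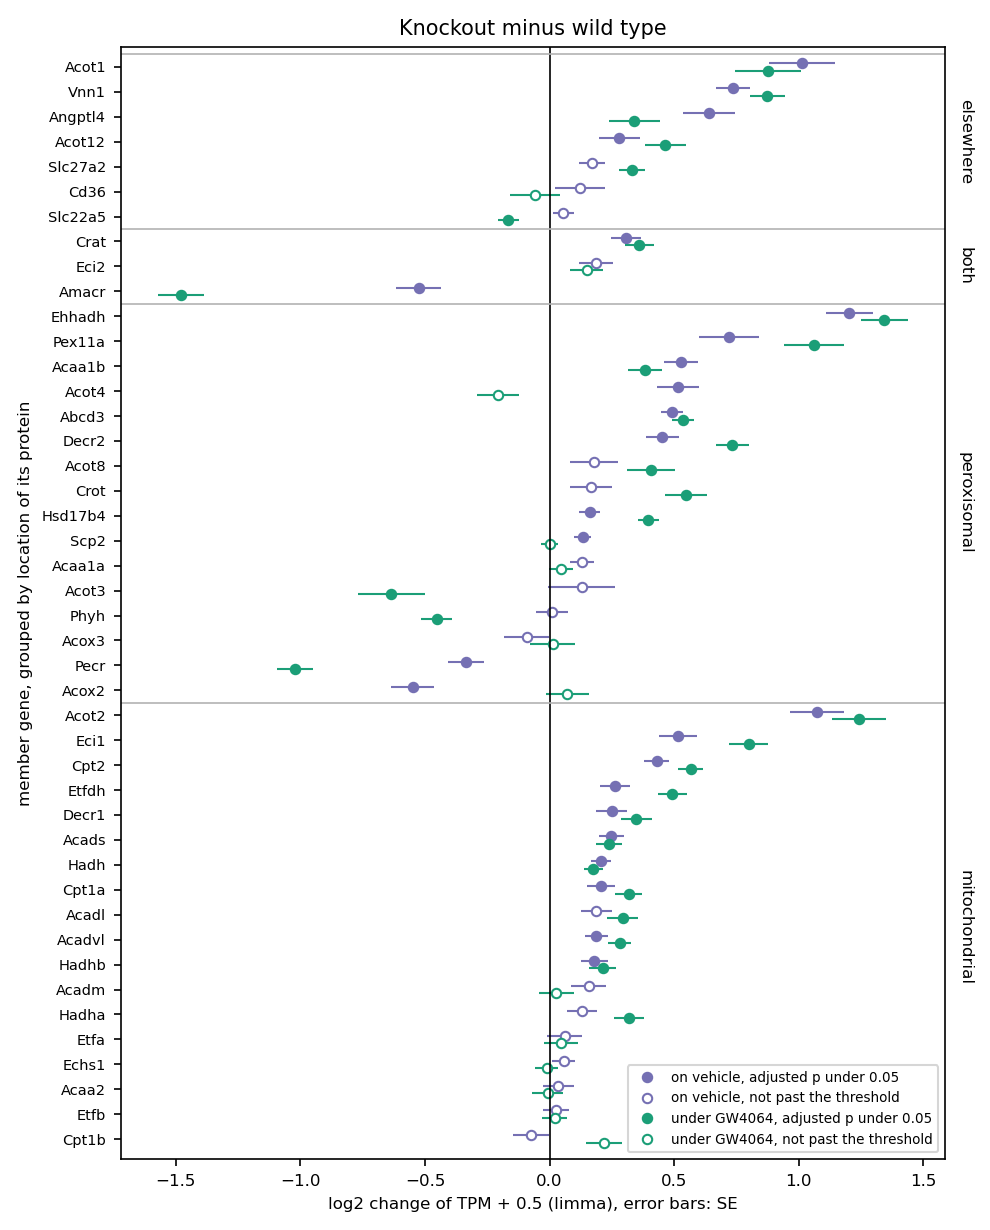
Log2 difference of TPM plus 0.5, knockout minus wild type (x axis, limma estimate with its standard error as bars), for each of the 44 tested members (y axis, grouped by the location of the protein), on vehicle and under GW4064. Filled points passed an adjusted p of 0.05. On vehicle most points lie to the right of 0 with Ehhadh at 1.20, and under GW4064 Amacr and Pecr lie farthest to the left at -1.48 and -1.02.

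The peroxisomal bifunctional enzyme Ehhadh, which carries out the hydration and second dehydrogenation of straight-chain acyl-CoAs, differed most. Its level was 879, 899 and 932 TPM in the wild-type and 1906, 2259 and 2084 TPM in the knockout vehicle libraries. Every knockout library lay above every wild-type library, with no value between the groups. The ratio of means was 2.31 and the log2 difference 1.20 ± 0.09 (SE; limma adjusted p = 3.48e-05, n = 3 against 3). Pex11a, which promotes peroxisome division, was at 26.6, 31.9 and 35.8 TPM in wild type and 47.4, 57.5 and 50.8 TPM in knockout, with no overlap and a log2 difference of 0.72 ± 0.12 (limma adjusted p = 0.00365). Abcd3, the transporter of branched and long acyl-CoAs into the peroxisome, was at 575, 563 and 594 TPM in wild type and 804, 838 and 796 TPM in knockout. Its groups were apart as well, with a log2 difference of 0.49 ± 0.04 (limma adjusted p = 7.46e-05). Acaa1b, a peroxisomal thiolase that closes the cycle, was at 632, 581 and 626 TPM in wild-type and 780, 954 and 923 TPM in knockout vehicle libraries (0.53 ± 0.07). Its near copy Acaa1a, at 155, 169.5 and 162 TPM in wild-type and 172, 179 and 181 TPM in knockout vehicle libraries, did not pass (0.13 ± 0.05). Decr2 reduces double bonds of unsaturated chains in the peroxisome and was at 116, 118 and 119.7 TPM in wild-type and 147, 181 and 158 TPM in knockout vehicle libraries (0.45 ± 0.07). The thioesterase Acot4 was at 77.7, 84.4 and 79.1 TPM in wild-type and 122, 104 and 121 TPM in knockout vehicle libraries (0.52 ± 0.08). For Acaa1b, Decr2 and Acot4 every knockout library was above every wild-type library. Hsd17b4, the bifunctional enzyme for branched chains and bile acid precursors, and Scp2, a lipid carrier and thiolase, completed the 8 peroxisomal members above wild type, at 0.16 ± 0.04 and 0.13 ± 0.03. Under median-of-ratios scaling their differences were 0.25 for Hsd17b4 and 0.22 for Scp2, while after quantile normalization neither passed.

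Thioesterases, which release free fatty acid from acyl-CoA, and proteins around the pathway also stood higher. Mitochondrial Acot2 was at 85.7, 91 and 102 TPM in wild-type and 194, 189 and 204 TPM in knockout vehicle libraries. Its cytosolic neighbour Acot1 was at 175, 190 and 199.6 TPM in wild-type and 383, 384 and 372 TPM in knockout vehicle libraries. All knockout libraries were above all wild-type libraries for both. The log2 differences were 1.07 ± 0.11 for Acot2 and 1.01 ± 0.13 for Acot1, with limma adjusted p-values of 0.00017 and 0.00089. Vnn1, a pantetheinase that feeds cysteamine and pantothenate metabolism, was at 223, 211 and 225 TPM in wild-type and 339.5, 385 and 376 TPM in knockout vehicle libraries, higher by 0.74 ± 0.07. Angptl4, a secreted inhibitor of lipoprotein lipase, was at 159, 175 and 184 TPM in wild type and 272, 289.9 and 248 TPM in knockout, a log2 difference of 0.64 ± 0.10. The groups were apart for both genes. Acot12, a cytosolic acetyl-CoA thioesterase, was the last of 4 called among the 7 members classed as elsewhere, at 0.28 ± 0.08. The fatty acid receptor and transporter Cd36 (0.12 ± 0.10), the carnitine transporter Slc22a5 (0.06 ± 0.04) and Slc27a2 (0.17 ± 0.05) did not pass the test.

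Of the 18 mitochondrial members, 10 were higher in knockout, none was lower, and 17 had a positive difference. Apart from Acot2, the largest difference was in Eci1, an isomerase for unsaturated chains, at 204, 206 and 223 TPM in wild type and 276, 328 and 302 TPM in knockout. The knockout libraries lay above the wild-type ones by a log2 difference of 0.52 ± 0.08 (limma adjusted p = 0.00203). Cpt2, the inner-membrane carnitine palmitoyltransferase, was at 178, 179 and 191 TPM and 234, 255 and 248 TPM, again without overlap, with a difference of 0.43 ± 0.05 (limma adjusted p = 0.000517). The outer-membrane enzyme Cpt1a, which controls entry of long chains, was at 448, 448 and 466 TPM in wild-type and 494, 575 and 505 TPM in knockout vehicle libraries (0.21 ± 0.06). The muscle form Cpt1b was the 1 mitochondrial member with a negative difference, -0.07 ± 0.07, which did not pass. The dehydrogenases for short and very long chains differed by 0.25 ± 0.05 (Acads) and 0.19 ± 0.05 (Acadvl), while those for medium and long chains, Acadm (0.16 ± 0.07) and Acadl (0.19 ± 0.06), did not pass the test. The hydroxyacyl-CoA dehydrogenase Hadh differed by 0.21 ± 0.04 and the beta subunit of the trifunctional protein, Hadhb, by 0.18 ± 0.05, while its alpha subunit Hadha was at 0.13 ± 0.06 and did not pass. Etfdh, which passes electrons from the dehydrogenases to ubiquinone, was at 288, 279.7 and 288 TPM in wild-type and 329.9, 359.7 and 336 TPM in knockout vehicle libraries (0.26 ± 0.06), and the dienoyl-CoA reductase Decr1 differed by 0.25 ± 0.06. The electron-transfer flavoprotein subunits Etfa and Etfb, the hydratase Echs1 and the thiolase Acaa2 lay between 0.03 and 0.06 and did not pass the test. Among the 3 members found in both organelles, the carnitine acetyltransferase Crat was at 91.6, 91.5 and 92.4 TPM in wild-type and 104, 122 and 116 TPM in knockout vehicle libraries, higher by 0.31 ± 0.06, and the isomerase Eci2 was at 0.19 ± 0.07 and did not pass.

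**Figure D2:**
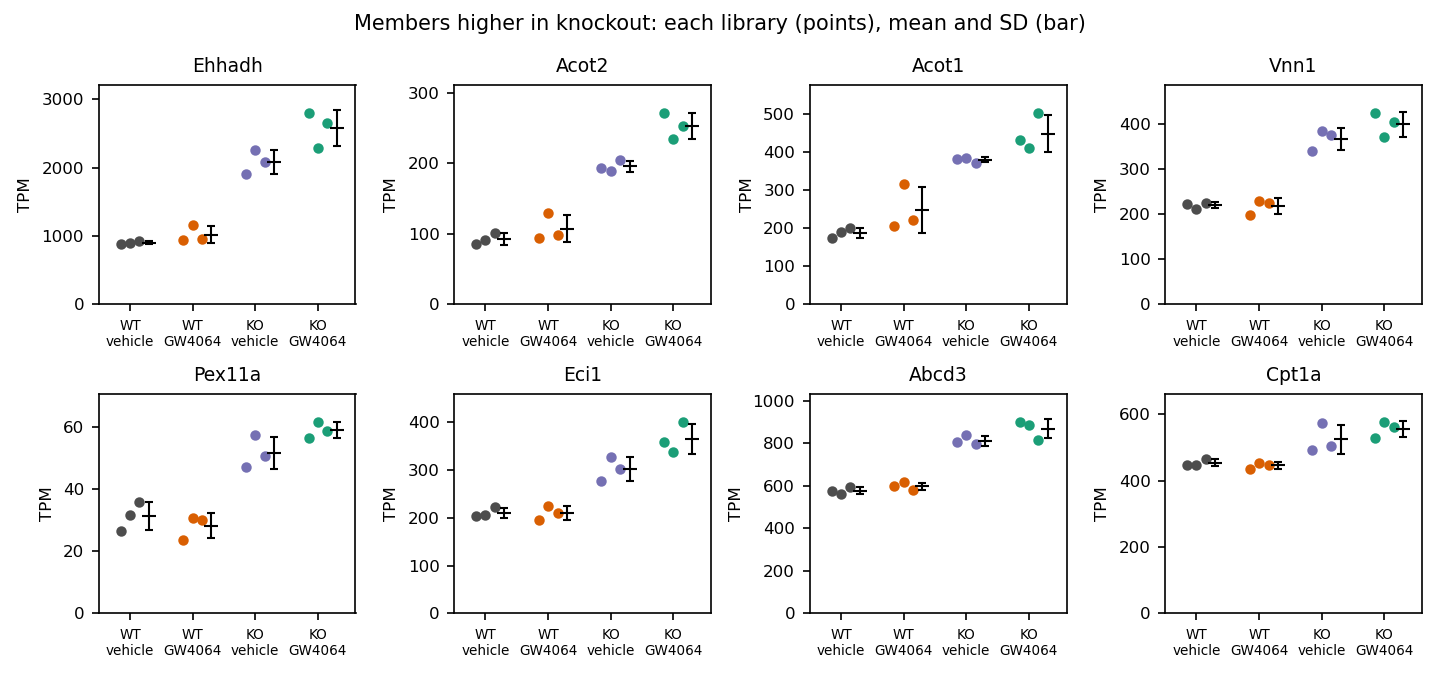
TPM (y axis, from 0) in each library (points) with the group mean and SD (bar), for 8 members that stood higher in knockout kidney, in the 4 groups along the x axis. Ehhadh lay between 879 and 1159.8 TPM in the 6 wild-type libraries and between 1906 and 2800 TPM in the 6 knockout libraries.

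The 3 members below wild type on vehicle all act on branched chains or on the reduction of enoyl-CoA. Acox2, the branched-chain and bile acid precursor oxidase, was at 139.6, 143 and 142 TPM in wild type and 88.8, 99.8 and 101 TPM in knockout. Every knockout library lay lower, by a log2 difference of -0.55 ± 0.09 (limma adjusted p = 0.00244). Amacr, a racemase that prepares branched acyl-CoAs for oxidation, was at 169, 137 and 161 TPM in wild-type and 112, 99.9 and 111 TPM in knockout vehicle libraries. Pecr, a peroxisomal trans-enoyl-CoA reductase of chain elongation, was at 377, 359 and 369.6 TPM in wild-type and 282, 298 and 294 TPM in knockout vehicle libraries. Neither gene's groups overlapped. Their log2 differences were -0.53 ± 0.09 and -0.34 ± 0.07, with limma adjusted p-values of 0.00467 and 0.0131. Phyh, which starts alpha-oxidation of phytanoyl-CoA, was at 751, 695 and 677 TPM in wild-type and 688, 739 and 709 TPM in knockout vehicle libraries, and these overlapped (0.01 ± 0.06). Acox3, another branched-chain oxidase, was at -0.09 ± 0.09, and neither passed the test.

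Of these 26 calls, 17 held in every alternative analysis and 18 in every analysis that left out 1 library. Cpt1a was lost without any single wild-type vehicle library or knockout vehicle library 2, Acadvl without wild-type vehicle 1 or 3 or knockout vehicle 2, and Etfdh without knockout vehicle 2 (limma adjusted p at most 0.0973, 0.105 and 0.061 over all alternatives). Decr1 was lost without wild-type vehicle 1 or 2 or knockout vehicle 2 or 3, and Hsd17b4 and Scp2 without any wild-type vehicle library or knockout vehicle 2 or 3 (at most 0.0792, 0.0961 and 0.097 in limma). Acot12 was lost without any 1 of 8 libraries, the exceptions being wild-type GW4064 2, knockout vehicle 3 and knockout GW4064 1 and 3. Hadhb was lost without any 1 of 10, the exceptions being knockout GW4064 1 and 2 (limma adjusted p at most 0.14 for Acot12 and 0.148 for Hadhb). Quantile normalization, and a fit with no variance trend, each ended the calls of Cpt1a, Acadvl, Hadhb, Hsd17b4, Scp2 and Acot12, and all of these but Acadvl were also lost when only the groups compared were fitted. Pecr missed the threshold under median-of-ratios scaling only, at a limma adjusted p of 0.056. Slc27a2 lay at the threshold (limma adjusted p = 0.0514): it passed in 8 alternatives and its sign turned after quantile normalization, at -0.08.

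Scaling changed how all genes split between directions. Of all genes, 462 were higher and 1410 lower in knockout on vehicle, against 833 and 539 under median-of-ratios scaling and 674 and 591 after quantile normalization. Of the members, 27 were higher and 2 lower under the former and 17 and 3 under the latter. Markers of the proximal tubule, a segment rich in these enzymes, summed to 55497 to 56268 TPM in wild-type and 59885 to 71797 TPM in knockout vehicle libraries. That difference lay in Kap, and the other 9 markers summed to 7596 to 7910 TPM in wild type and 7189 to 7805 TPM in knockout, with overlap. Of 10 such markers none was called higher and 1, Slc7a13, was lower at -0.56 ± 0.11. All 3 podocyte markers, 3 of 6 endothelial and 2 of 3 principal cell markers were called lower, as was the smooth muscle gene Myh11 (-0.38 ± 0.09). Of 3 intercalated cell markers Slc4a1 was lower (-0.52 ± 0.09), while Atp6v1g3 (0.16 ± 0.07) and Atp6v0d2 (0.10 ± 0.10) were positive and did not pass. Of 4 macrophage markers 3 were positive and 1 was called higher, C1qa at 0.51 ± 0.13. Csf1r was at -0.08 ± 0.05, with all knockout libraries lower, and did not pass. The part of these cell types in the members' differences was not tested. When a score over 4 white fat markers (Adipoq, Plin1, Cidec and Cfd) was added to the fit, 20 members were higher and 3 lower.

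Under GW4064 most members again stood higher in knockout, and the lower ones were Amacr, Pecr, Acot3, Phyh and Slc22a5. In limma's test 26 members were higher and 5 lower, against 7.08% and 11.4% of all genes (18.5% in either direction), and the median was 0.29 against -0.03 for all genes. The groups did not overlap for 28 higher and 5 lower members, against 14% and 22.7% of all genes. Whether these differences differ from those on vehicle is what the interaction test, given later, asked. Of the 18 mitochondrial members 12 were higher and none lower, and of the 16 tested peroxisomal members 8 were higher and 3 lower.

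Ehhadh was at 942, 1159.8 and 954 TPM in wild type and 2799.6, 2285 and 2657 TPM in knockout under GW4064. The knockout libraries lay far above, at a ratio of means of 2.53 and a log2 difference of 1.34 ± 0.09 (limma adjusted p = 3.78e-06). Acot2 was at 93.6, 129.9 and 98.8 TPM in wild-type and 271, 234 and 252 TPM in knockout libraries (1.24 ± 0.11). Pex11a was at 23.6, 30.9 and 30.2 TPM in wild-type and 56.7, 61.7 and 58.8 TPM in knockout libraries (1.06 ± 0.12). None of these groups overlapped. Eci1 was at 196, 225 and 209 TPM in wild-type and 359, 338 and 400 TPM in knockout libraries (0.80 ± 0.08), again without overlap. Vnn1 (0.87 ± 0.07), Acot1 (0.88 ± 0.13), Decr2 (0.73 ± 0.07), Cpt2 (0.57 ± 0.05), Abcd3 (0.54 ± 0.04), Etfdh (0.49 ± 0.06), Acot12 (0.46 ± 0.08) and Hsd17b4 (0.40 ± 0.04) were also called higher. So were Acaa1b (0.38 ± 0.07), Crat (0.36 ± 0.06), Decr1 (0.35 ± 0.06), Angptl4 (0.34 ± 0.10), Cpt1a (0.32 ± 0.06), Acadvl (0.28 ± 0.05), Acads (0.24 ± 0.05), Hadhb (0.21 ± 0.05) and Hadh (0.17 ± 0.04). Crot, which makes carnitine esters of chains shortened in the peroxisome, was at 624, 717 and 728 TPM in wild-type and 991, 935 and 1098 TPM in knockout libraries, with no overlap (0.55 ± 0.09). Crot was among 5 members called higher here and not on vehicle, with Acot8 (0.41 ± 0.10), Hadha (0.32 ± 0.06), Acadl (0.29 ± 0.06) and Slc27a2 (0.33 ± 0.05). The interaction test did not pass for any of these 5.

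Of the 5 lower members, Amacr was at 287, 257 and 289.8 TPM in wild-type and 91.3, 111 and 95.8 TPM in knockout libraries, a log2 difference of -1.48 ± 0.09 (limma adjusted p = 1.40e-06). Pecr was at 501, 507 and 533 TPM in wild-type and 222, 286 and 254 TPM in knockout libraries (-1.02 ± 0.07), and Phyh at 985, 1093 and 978 TPM in wild-type and 685, 779 and 768 TPM in knockout libraries (-0.45 ± 0.06). All 3 stood apart without overlap. Acot3 differed by -0.63 ± 0.13 and Slc22a5 by -0.17 ± 0.04.

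Of the 31 calls, 27 held without any 1 library and 26 in every alternative. Hadhb was lost without wild-type GW4064 library 3 or knockout GW4064 library 1 or 3, Acot8 without wild-type GW4064 1 or knockout GW4064 3, and Slc22a5 without wild-type GW4064 1 or 2 or knockout GW4064 3 (limma adjusted p at most 0.0568, 0.0586 and 0.0537). Angptl4 was lost without any of 7 libraries, namely wild-type vehicle 2, wild-type GW4064 1 or 3, knockout vehicle 1 and any of knockout GW4064 (at most 0.153 in limma, over all alternatives). Slc27a2 fell to 0.05 after quantile normalization (limma adjusted p = 0.717). The scaling moved the split of all genes here too. Of all genes 1026 were higher and 1651 lower, against 1250 and 1309 under median-of-ratios scaling and 1306 and 1321 after quantile normalization. Of the 10 proximal tubule markers none was called higher and 5 were lower, and without Kap the other 9 summed to 7884 to 7988 TPM in wild type and 6408 to 7174 TPM in knockout, with no overlap. With Kap the sums were 63989 to 69145 and 60818 to 66731 TPM. Of other cell types, 2 of 3 podocyte markers and 1 of 3 principal cell markers (Aqp3) were lower. So were 1 of 4 macrophage markers (Csf1r) and 1 of 6 endothelial markers (Kdr), and the endothelial Plvap was higher. The difference was positive for 3 of the 4 macrophage and 3 of the 6 endothelial markers. The part of any of these cell types in the members' differences was not tested.

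Summed over genes, the members took a larger share of the transcripts in knockout kidney. The 45 members summed to 18263, 18172 and 18766 TPM in wild-type vehicle, 18510, 19927 and 19007 in wild-type GW4064, 21481, 23163 and 22211 in knockout vehicle and 23592, 23151 and 24223 in knockout GW4064 libraries. That was 1.817 to 1.877% of all transcripts in wild type and 2.148 to 2.316% in knockout on vehicle. The peroxisomal sum went from 5613 ± 81 TPM (SD, n = 3) in wild type to 7480 ± 408 in knockout on vehicle and from 6330 ± 313 to 8345 ± 235 under GW4064. The mitochondrial sum went from 6397 ± 19 to 7310 ± 366 and from 6660 ± 260 to 7778 ± 214 TPM. Within each treatment, no knockout sum overlapped a wild-type sum in either class. Ehhadh alone, at 903 ± 26.6 and 2083 ± 176 TPM on vehicle, held much of the peroxisomal difference. Between treatments, wild-type sums with GW4064 lay above those on vehicle in both classes. They were 6435 to 6944 against 6382 to 6418 TPM (mitochondrial) and 6107 to 6688 against 5520 to 5667 TPM (peroxisomal). In knockout the peroxisomal sums were also apart, at 8073 to 8482 against 7093 to 7907 TPM, and the mitochondrial sums overlapped. The sums were not tested. Slc27a2, which is not in the peroxisomal sum, averaged 4453 TPM in wild-type vehicle and 3856 in wild-type GW4064 libraries. In knockout it averaged 5012 TPM on vehicle and 4851 under GW4064.

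**Figure D3:**
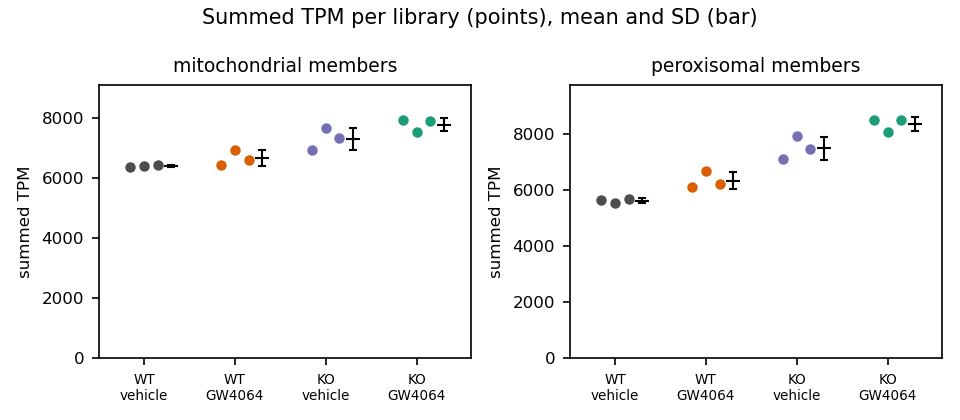
Summed TPM (y axis, from 0) of the 18 mitochondrial and the 17 peroxisomal members in each library (points), with the group mean and SD (bar), by group along the x axis. The wild-type vehicle sums lie near 6397 and 5613 TPM and the knockout GW4064 sums near 7778 and 8345 TPM.

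Gene by gene, the medians of the organelles lay close together among the tested members, though under GW4064 this depended on the filter. On vehicle the median knockout difference was 0.19 for mitochondrial and 0.16 for peroxisomal members, a gap of 0.0239, and under GW4064 it was 0.26 and 0.23, a gap of 0.0332. Taken in single libraries, the gap varied within a group with an SD of 0.0334, and it was not tested. Under GW4064 no tested peroxisomal member lay between Acox2 at 0.07 and Acaa1b at 0.38, and their median fell in that empty stretch. With no filter, which adds Abcd2, the gap under GW4064 was 0.1883. The peroxisomal members spread more widely, from -1.02 to 1.34 under GW4064 against -0.01 to 1.24 for the mitochondrial ones. On vehicle the ranges were -0.55 to 1.20 and -0.07 to 1.07.

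In wild-type kidney, 6 h of GW4064 moved 8 members, of which 5 are in the peroxisomal class, which leaves out Slc27a2. In limma's test 6 of 44 members rose and 2 fell, against 2.48% and 2.32% of all genes (4.8% in either direction), with a median of 0.03 against -0.03 for all genes. Of the 16 tested peroxisomal members 4 rose and 1 fell, and of the 18 mitochondrial members none moved past the threshold (limma, with 2 of the 18, or 11.1%, at an unadjusted p under 0.05, against 19.3% of all genes). Their medians were 0.05 and 0.00, a gap of -0.0448, mitochondrial minus peroxisomal, which was not tested. The 2 mitochondrial members at an unadjusted p under 0.05 were Acadm and Cpt1b, both without overlap. Acadm changed by 0.23 ± 0.07 (limma adjusted p = 0.0909) and Cpt1b by -0.21 ± 0.07 (0.149 in limma). Acadm passed after quantile normalization and without knockout vehicle library 2, down to 0.0293 in limma. The groups did not overlap for 14 members upward and 6 downward, against 10.1% and 16.7% of all genes.

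Amacr rose most, from 169, 137 and 161 TPM on vehicle to 287, 257 and 289.8 TPM with GW4064, a ratio of means of 1.78. The treated libraries all lay above the vehicle libraries, by 0.84 ± 0.09 on the log2 scale (limma adjusted p = 0.000337). Phyh went from 751, 695 and 677 to 985, 1093 and 978 TPM (0.53 ± 0.06, limma adjusted p = 0.000599) and Pecr from 377, 359 and 369.6 to 501, 507 and 533 TPM (0.48 ± 0.07, limma adjusted p = 0.00264). For both, all 3 treated libraries lay above all 3 vehicle libraries. Among the thioesterases, Acot4 went from 77.7, 84.4 and 79.1 to 126, 129 and 108 TPM (0.58 ± 0.08, limma adjusted p = 0.00187) and Acot3, a peroxisomal thioesterase for long chains, from 50, 57.3 and 62.6 to 79.4, 112 and 86.7 TPM (0.70 ± 0.13, limma adjusted p = 0.0121). Angptl4 went from 159, 175 and 184 to 199.6, 280 and 229 TPM (0.44 ± 0.10, limma adjusted p = 0.0353). The treated libraries stood above the vehicle ones for these 3 genes too.

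Acox2 was the main member to fall, from 139.6, 143 and 142 to 89, 89.8 and 90.1 TPM. All 3 treated libraries were lower and nearly alike, at -0.66 ± 0.09 on the log2 scale (limma adjusted p = 0.000992). Slc27a2 went from 4312, 4352 and 4695 to 3825, 3838 and 3904 TPM (-0.21 ± 0.05, limma adjusted p = 0.0454), also without overlap. Ehhadh, at 0.17 ± 0.09, Acot2 at 0.20 ± 0.11 and Cd36 at 0.37 ± 0.10 did not pass the test.

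**Figure D4:**
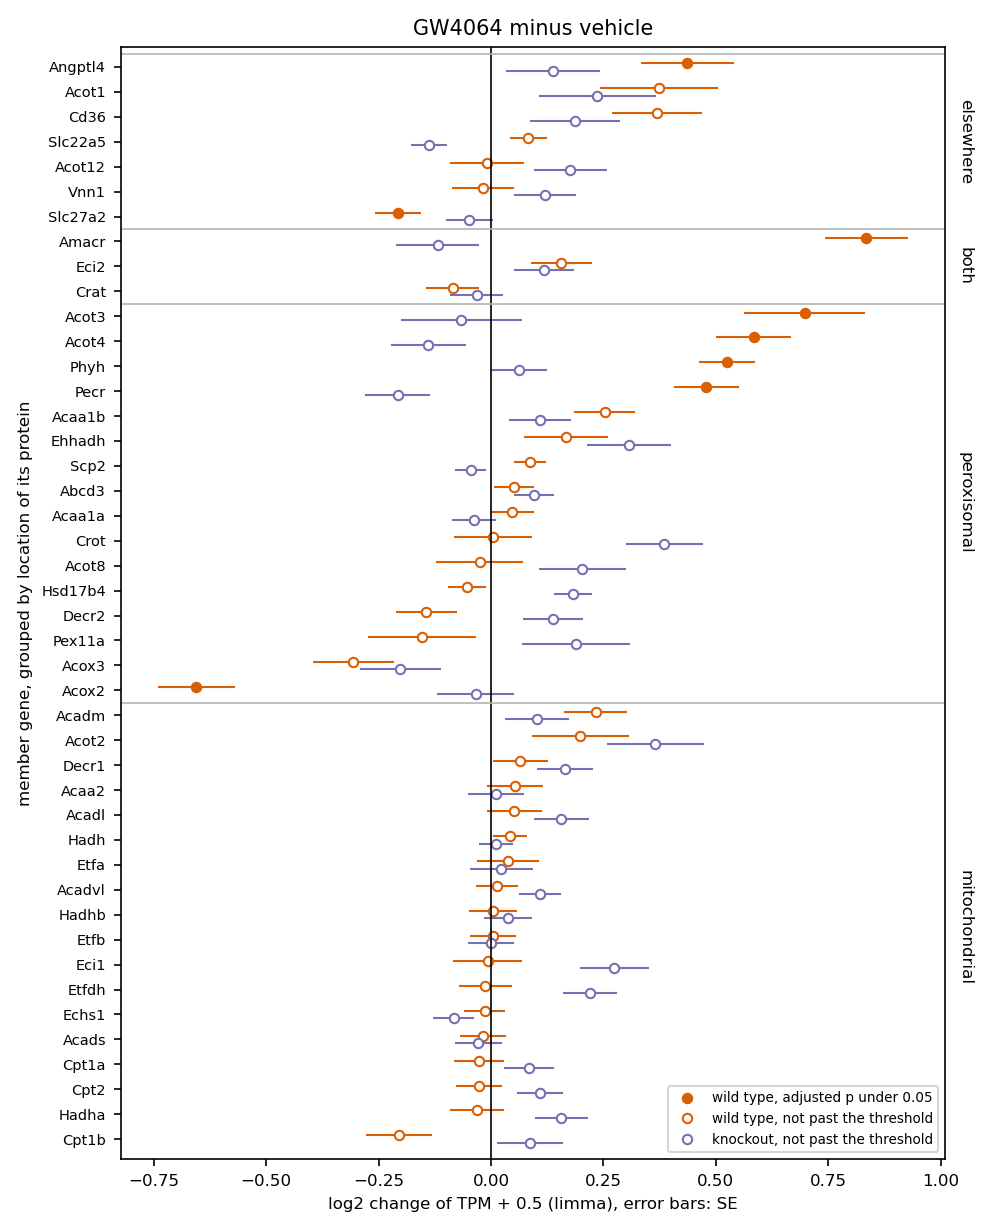
Log2 change of TPM plus 0.5, GW4064 minus vehicle (x axis, limma estimate with its standard error as bars), for each of the 44 tested members (y axis, grouped by the location of the protein), in wild type and in knockout. Filled points passed an adjusted p of 0.05. In wild type they run from Acox2 at -0.66 to Amacr at 0.84, and in knockout none is filled.

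Without wild-type vehicle library 1 the count of 8 fell to 5, as Acot3, Angptl4 and Slc27a2 were lost. Acot3 was lost in that analysis alone, at a limma adjusted p of 0.0526. Angptl4 was also lost without wild-type vehicle 2 or 3, wild-type GW4064 2 or 3 or knockout vehicle 1 (at most 0.121). Slc27a2 was lost without any of 9 libraries, all but the knockout GW4064 ones, and stood at -0.13 after quantile normalization (limma adjusted p = 0.415). The other 5 members were called in every alternative. All genes split into 360 higher and 336 lower, against 453 and 236 under median-of-ratios scaling, where 7 members were higher and 1 lower. Of 10 proximal tubule markers 1 rose, Cubn at 0.22 ± 0.04, and none fell. Among other cell types, Csf1r rose, 1 of 4 macrophage markers (0.27 ± 0.05). Aqp2, 1 of 3 principal cell markers (-0.52 ± 0.10), and Plvap, 1 of 6 endothelial markers (-0.23 ± 0.05), fell. No other marker of these lists was called. The change was positive for 3 of the 4 macrophage, 0 of the 3 principal cell and 2 of the 6 endothelial markers. The part of these cell types in the members' changes was not tested.

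In knockout kidney no member passed the test for GW4064 against vehicle in limma, while 13 of 44 were at an unadjusted p under 0.05 (29.5%, against 10.8% of all genes). Over all genes 2 passed, or 0.0138%, with 0.0069% higher and 0.0069% lower. The groups did not overlap for 10 members upward and 1 downward, against 8.78% and 5.07% of all genes. The members' median was 0.10, against 0.02 for all genes, with 30 of 44 positive. The largest estimates were in Crot, at 794, 834 and 689.6 TPM on vehicle and 991, 935 and 1098 TPM with GW4064 (0.39 ± 0.09), and Acot2 (0.37 ± 0.11). Among the members that moved in wild type, Amacr was at 112, 99.9 and 111 TPM on vehicle and 91.3, 111 and 95.8 TPM with GW4064 (-0.12 ± 0.09), and Acox2 at 88.8, 99.8 and 101 TPM and 108, 80.5 and 96.7 TPM (-0.03 ± 0.09). For Amacr and Acox2 the vehicle and treated libraries of the knockout overlapped.

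The interaction test asked directly whether the GW4064 effect differed between genotypes. It called 5 of 44 members, 1 with a higher and 4 with a lower effect in knockout, against 1.47% and 1.72% of all genes (3.19% in either direction). The difference of effects, knockout minus wild type, was -0.95 ± 0.13 for Amacr, -0.72 ± 0.12 for Acot4, -0.69 ± 0.10 for Pecr and -0.46 ± 0.09 for Phyh (limma adjusted p = 0.00302, 0.00822, 0.00492 and 0.0177). Acox2, which fell in wild type, had a difference of 0.62 ± 0.12 (limma adjusted p = 0.0192). All 5 moved in wild type and showed effects of -0.21 to 0.06 in knockout. Acot3 was close, at -0.76 ± 0.19 (limma adjusted p = 0.055), and passed in 5 alternatives, down to 0.0286 in limma. Slc27a2 (0.16 ± 0.07) and Angptl4 (-0.30 ± 0.15) did not pass. No mitochondrial member was called.

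Acox2 was lost without wild-type GW4064 library 1 or knockout vehicle library 1 (limma adjusted p = 0.0548 and 0.052), and once the white fat score was in the fit (0.0761 in limma). Phyh was lost only in that last fit (0.0548 in limma). White fat markers summed to 20.6 to 31.5 TPM in wild-type vehicle, 1.503 to 37.6 in wild-type GW4064, 4.11 to 33.2 in knockout vehicle and 9.47 to 30.3 in knockout GW4064 libraries. The interaction was also called for 3 markers. These were Cubn of 10 proximal tubule markers (-0.30 ± 0.06), Csf1r of 4 macrophage markers (-0.29 ± 0.07) and Plvap of 6 endothelial markers (0.35 ± 0.07). The estimate was positive for 2 of the 10, 1 of the 4 and 5 of the 6. The part of cell types in the members' differences was not tested. All genes split into 213 higher and 249 lower, against 141 and 346 under median-of-ratios scaling.

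**Figure D5:**
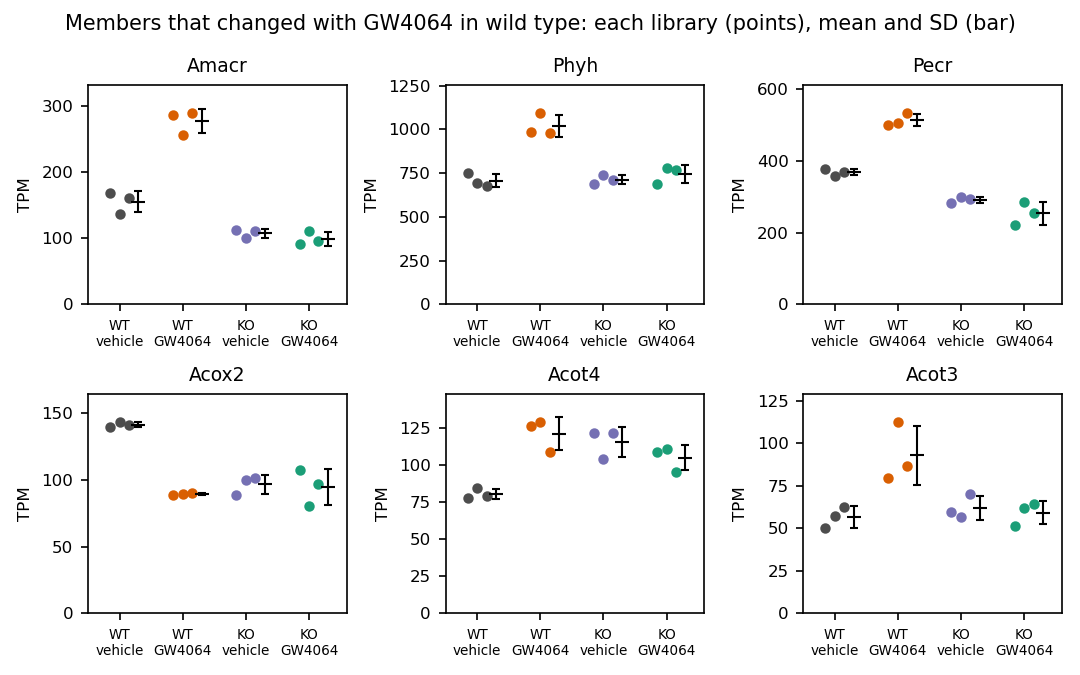
TPM (y axis, from 0) in each library (points) with the group mean and SD (bar), for 6 members that changed with GW4064 in wild-type kidney, in the 4 groups along the x axis. The wild-type GW4064 group stands apart from wild-type vehicle in each panel, above it for Amacr, Phyh, Pecr, Acot4 and Acot3 and below it for Acox2.

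Some members passed the test in both comparisons with wild-type vehicle. Amacr and Pecr stood lower in knockout on vehicle and rose with GW4064 in wild type, and Acox2 stood lower in knockout and fell with GW4064 in wild type. Acot4 stood higher in knockout on vehicle and rose with GW4064 in wild type, so that wild-type treated and knockout vehicle libraries overlapped, at 126, 129 and 108 TPM and 122, 104 and 121 TPM. Angptl4 likewise was higher in knockout on vehicle and rose with GW4064 in wild type. These comparisons share the wild-type vehicle libraries.

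The thioesterase genes Acot2, Acot1, Acot4 and Acot3 lie in this order on the plus strand of mouse chromosome 12 (mm10), at 83987861 to 83993875, 84009502 to 84017669, 84038379 to 84044723 and 84052144 to 84060400. Neighbours differed in their pattern. The genotype difference on vehicle was 1.07, 1.01, 0.52 and 0.13 in that order, and the wild-type GW4064 change was 0.20, 0.37, 0.58 and 0.70. Only Acot4 passed in both. Acot1 in wild-type GW4064 libraries was spread over 206, 316 and 222 TPM, where the second library stood above the other 2. That library also held the most white fat marker transcripts of its group, 37.6 TPM against 1.503 and 5.71, and with the white fat score in the fit the wild-type change of Acot1 passed (limma adjusted p = 0.0252), as did that of Acot2 (0.0347 in limma). In wild-type vehicle libraries Acot1 was at 175, 190 and 199.6 TPM, with white fat sums of 22.3, 20.6 and 31.45 TPM. In knockout vehicle libraries it was at 383, 384 and 372 TPM, with sums of 20.8, 4.11 and 33.2 TPM. In knockout GW4064 libraries it was at 433, 412 and 503 TPM, with sums of 30.3, 9.47 and 28.6 TPM. The part of fat tissue in the levels of Acot1 and Acot2 was not tested.

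In all, 10 of the 44 tested members passed in no comparison. The matching share of all genes was not computed, so the count is a description only. The largest share of all genes called in any comparison was 18.5%, in either direction, for knockout against wild type under GW4064. The 10 members include core steps of the mitochondrial spiral, namely Acadm, Echs1, Acaa2 and the flavoprotein subunits Etfa and Etfb. Acadm was at 1206, 1147 and 1107 TPM in wild-type vehicle, 1264, 1394 and 1408 in wild-type GW4064, 1201, 1446 and 1224 in knockout vehicle and 1389, 1329.9 and 1422 in knockout GW4064 libraries, and the groups overlapped between genotypes. Its wild-type GW4064 libraries all lay above its wild-type vehicle libraries, and that change passed in some alternatives. Etfb was at 518, 539.5 and 559, 539.6, 555 and 528, 511, 552 and 584 and 555, 562 and 528 TPM in the same order, with overlap between all 4 groups. The others were Cpt1b, Acaa1a, Acox3, Eci2 and Cd36.

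Genes of the pathway outside the member list were read from 5 further lists. Of 22 genes of fatty acid activation, binding and transport, 7 were higher and 4 lower in knockout on vehicle. Of all genes, 3.19% were higher and 9.73% lower on vehicle, and 7.08% and 11.4% under GW4064. Plin2, a lipid droplet coat protein, was at 147, 126 and 144 TPM in wild type and 429, 710.3 and 516 TPM in knockout, with no overlap (1.95 ± 0.16). Other large differences were in Fabp1, the liver fatty acid binding protein (2.51 ± 0.27), and Acsl1, a long-chain acyl-CoA synthetase (1.10 ± 0.08). Slc25a20, the carnitine-acylcarnitine carrier that links Cpt1a and Cpt2, differed by 0.43 ± 0.06, and Dbi (0.23 ± 0.05), Slc27a1 (0.23 ± 0.07) and Acsl3 (0.19 ± 0.06) were higher as well. The lower ones were Fabp3 (-0.60 ± 0.07), Acss2 (-0.38 ± 0.05), Slc27a4 (-0.20 ± 0.05) and Acot13 (-0.12 ± 0.03). Under GW4064, 8 were higher, namely those 7 and Pnpla2, and 6 lower, namely Acsm1, Acsm2, Acsm3, Acss2, Fabp3 and Acot13, with Plin2 at 2.23 ± 0.16, Fabp1 at 2.73 ± 0.27 and Slc25a20 at 0.44 ± 0.06.

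Of 22 tested further peroxisomal genes 3 were higher and 2 lower in knockout on vehicle, and of 15 peroxins none was higher and 4 were lower. The shares of all genes were 3.19% higher and 9.73% lower on vehicle, and 7.08% and 11.4% under GW4064, so several of the counts in these lists lay near them. Ephx2 (0.27 ± 0.06), Slc25a17 (0.26 ± 0.06) and Nudt7 (0.18 ± 0.05) were the higher ones. Baat, which conjugates bile acids, was lower at -0.54 ± 0.16, as was Pxmp2 at -0.23 ± 0.07. The lower peroxins were Pex5, Pex6, Pex11g and Pex19, at -0.30 to -0.16. Among 19 genes listed as further mitochondrial ones, Acad11 (0.35 ± 0.05) and Acad12 (0.26 ± 0.05) were higher and none was lower. Under GW4064, 5 further peroxisomal genes were higher (Cat, Nudt7, Lonp2, Slc25a17 and Acbd5) and 8 lower (Pipox, Dao, Ddo, Baat, Nudt19, Agps, Far1 and Tysnd1). Of the peroxins 1 was higher, Pex14, and 3 lower, Pex5, Pex13 and Pex19. Of the list of further mitochondrial genes 2 were higher, Acad11 and Acad12, and 3 lower, Acad9, Hsd17b10 and Eci3. Eci3 was placed on that list although its enzyme is known as a peroxisomal isomerase.

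Of 19 regulators, 3 were higher and 4 lower in knockout on vehicle. For all genes the shares were 3.19% and 9.73% on vehicle, and 7.08% and 11.4% under GW4064. Ppara, the nuclear receptor of this program, was at 107, 118 and 113 TPM in wild type and 104, 129 and 109 TPM in knockout, and these groups overlapped at a difference of 0.02 ± 0.08. Mlycd, which removes the Cpt1a inhibitor malonyl-CoA, was higher by 0.42 ± 0.08, as were Ncor1 and Prkaa2 by smaller amounts. The coactivator Ppargc1a was lower at -0.20 ± 0.05, and so were Esrra (-0.20 ± 0.06), Esrrg (-0.35 ± 0.06) and Sirt3 (-0.21 ± 0.05). Pparg was at -0.65 ± 0.24 and did not pass. Under GW4064, 8 regulators were higher (Ppara, Ppargc1b, Rxra, Ncor1, Prkaa2, Acacb, Mlycd and Lpin1) and 4 lower (Ppargc1a, Esrra, Esrrg and Acaca), with Ppara at 0.32 ± 0.08.

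With GW4064 in wild type, 2 regulators fell and none rose, while 2.32% of all genes fell and 2.48% rose. Ppara was at 107, 118 and 113 TPM on vehicle and 82.7, 85 and 83.9 TPM with GW4064, a change of -0.42 ± 0.08 (limma adjusted p = 0.0104). Lpin1, a phosphatidate phosphatase and coactivator, changed by -1.06 ± 0.20. In the other lists, Tysnd1, a protease that processes enzymes imported into the peroxisome, rose by 0.94 ± 0.10, Hacl1, the lyase that follows Phyh in alpha-oxidation, by 0.54 ± 0.12, and Ephx2 by 0.32 ± 0.06. Pex13 (0.36 ± 0.05), Acsm3 (0.48 ± 0.11) and Acot13 (0.27 ± 0.03) also rose. The interaction test called Tysnd1 (-1.13 ± 0.13), Acot13 (-0.32 ± 0.05), Pex13 (-0.28 ± 0.07) and Slc27a1 (0.39 ± 0.09), and 3.19% of all genes. In knockout none of the 97 tested genes of the 5 lists passed for GW4064 in limma, while 16 were at an unadjusted p under 0.05, against 10.8% of all genes.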

How the data were processed

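RNA abundance was measured in 12 kidney libraries made from ribosome-depleted, strand-specific total RNA, per the labels' protocols. HISAT2, StringTie and Cufflinks and the mm10 build are named in the submitters' processing notes, with no versions. The TPM values, the FPKM values and the read coverage (signal) per gene are as the authors deposited them, per the file headers. No read counts were used, so the mapped gigabases of a library were taken as the median ratio of coverage to FPKM over its entries above a low floor. Entries of 1 gene identifier were summed (113 to 142 identifiers a library), and 24462 of 24532 identifiers were matched to symbols.

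Log2(TPM + 0.5) of genes at 1 TPM or more in at least 3 libraries was fitted in limma 3.58.1 (R 4.3.3) with a mean per group over all 12 libraries and a variance trend. Fold changes are on that scale and understate changes of low genes. P-values were Benjamini-Hochberg adjusted over 14488 genes in each comparison. The procedure was tested on simulated data. Alternatives changed the pseudocount, filter, scaling, unit, variance model, samples, replicate block and a fat marker covariate, or left out 1 library.

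The members and lists were chosen with earlier results of these data known. Any member could be named, and from the further lists the called genes and Ppara, Pparg, Ppargc1a, Slc25a20 and Plin2. A gene of those lists is not reported here and is left out of their counts.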

Additional observations from a re-analysis of the deposited data

Results flagged for a closer look

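The effect of GW4064 differed between the genotypes for 5 members by the interaction test in limma (knockout minus wild type, n = 3 in each of 4 groups). The differences were -0.95 for Amacr, -0.72 for Acot4, -0.69 for Pecr, 0.62 for Acox2 and -0.46 for Phyh on the log2 scale. Amacr, Acot4, Pecr and Phyh rose with GW4064 in wild type, Acox2 fell, and none of the 5 passed the test in knockout.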

How the results depend on the processing

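Direction was kept by every called member under every alternative. The number of members called stayed within 1.5 times its main value in each comparison, with 1 exception: for GW4064 in wild type it was 5 without wild-type vehicle library 1 (range 5 to 10 over libraries left out, main value 8). The gap between mitochondrial and peroxisomal medians moved by more than its SD between libraries in few settings. On vehicle, knockout against wild type, it was -0.0164 after quantile normalization. Under GW4064 it was 0.1883 with no filter, which adds Abcd2, and -0.0099 to 0.0635 over libraries left out. For the interaction it was -0.0178 with the fat marker covariate and 0.0010 to 0.0775 over libraries left out. The cause of the other moves was not tested. Same-numbered libraries of different groups did not deviate together (correlations of -0.075 to 0.083 over 18 pairs, against -0.105 to 0.126 for other pairs). With the replicate number as a block, members called were 9 for GW4064 in wild type, 0 in knockout, 26 and 31 for genotype on vehicle and under GW4064, and 6 for the interaction. An analysis of only the groups compared was not run for the interaction, which needs all 4. The 3 libraries a group limit the precision, as the standard errors show.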
